A study of Mus musculus with 6 samples.

Results

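The genes described here encode the nuclear subunits of the mitochondrial respiratory chain and of ATP synthase, measured in mouse hearts. They were chosen by symbol alone: Nduf genes of the a, b, c, s and v series, Sdha to Sdhd, Uqcr genes, Cyc1, Cycs, the Cox4 to Cox8 isoforms, and Atp5 genes. The rule found 83 genes with a probe set of their own among 18193 genes: 35 of complex I, 4 of complex II, 9 of complex III, 17 of complex IV, 17 of complex V (ATP synthase) and cytochrome c (1). Another 7 symbols that fit the rule stood only on probe sets shared by several symbols and were not used. A total of 75 of the 83 genes lay in the brightest 5% of all genes.

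Heart RNA was hybridised to 6 one-colour Affymetrix mouse genome arrays, from mice 3 months old. TNFαDes-/- mice (3 arrays) lacked desmin and overexpressed the cytokine TNF-α in the heart, on a mixed 129SV and C57 background. Des-/- mice (3 arrays) lacked desmin alone and were of strain 129SV. Desmin, the main intermediate filament of heart muscle, was therefore missing from both groups, and the sources used here do not name the promoter of the transgene. The strains differed along with the transgene, so these cannot be told apart. The labels say that RNA of 3 hearts per genotype was pooled, whereas the design text gives 3 mice, so p-values measure only the spread between arrays, which may be technical.

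Complexes I to IV pass electrons from NADH and succinate through coenzyme Q and cytochrome c to oxygen, and complexes I, III and IV pump protons across the inner mitochondrial membrane. Complex V uses the returning protons to make ATP. The heart depends on this pathway for nearly all of its ATP. Several subunits of complex IV, cytochrome c oxidase, exist as isoforms: Cox6a2, Cox7a1 and Cox8b are the forms of heart and skeletal muscle, and Cox6a1, Cox7a2 and Cox8a are the forms found in most tissues.

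The deposited values are log2 array signals, and their scale was not the same on all arrays. The 99th percentile of all probe sets was 12.26 to 12.31 on the TNFαDes-/- arrays, and on the Des-/- arrays it was 12.27 for array 1, 11.75 for array 2 and 11.69 for array 3. The subunit genes followed this split: the median subunit was 0.50 higher on Des-/- array 1 than on Des-/- array 2 and 0.55 higher than on Des-/- array 3, on the log2 scale, while Des-/- arrays 2 and 3 differed by 0.06. The log2 ratio of 3′ to 5′ control probe sets of Gapdh, a measure of RNA integrity and labelling, was 0.28 to 0.34 on TNFαDes-/- arrays and -0.05 to 0.01 on Des-/- arrays. Its part in the results was not tested. Since nearly all subunit genes are bright, each result is given as deposited and after quantile normalization, which forces all 6 arrays to 1 distribution.

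As deposited, 5 of the 83 genes passed the test (limma, Benjamini-Hochberg over all genes, adjusted p below 0.05), all 5 higher in TNFαDes-/- hearts. That is 6.02% of the subunits, where 15.2% of all genes were called higher, and 0 subunits were called lower, where 6.05% of all genes were. At an unadjusted p under 0.05 13 subunits were higher and 0 lower, where 23.1% of all genes were higher and 11.2% lower. The median log2 change, TNFαDes-/- minus Des-/-, was 0.19 over the subunits and 0.04 over all genes. After quantile normalization 3 subunits were higher and 19 lower, with a median of -0.15, where 12% of all genes were called higher and 10.4% lower. By contrast, with Des-/- array 1 left out of the deposited values, 49 subunits were higher and 0 lower with a median of 0.36, where 23.4% of all genes were called higher and 8.56% lower. The direction of the subunits as a group therefore differed between settings: 50 of the 83 genes had a positive change as deposited and a negative one after quantile normalization, 17 were positive in both and 16 negative in both.

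**Figure D1:**
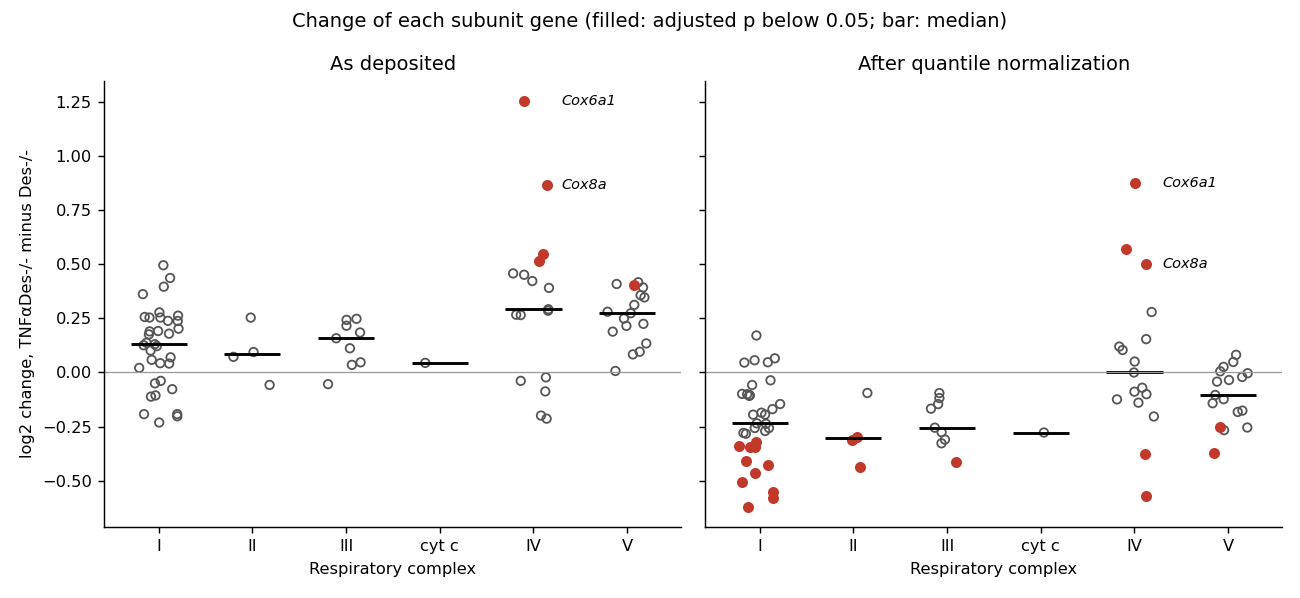
Log2 change of each of the 83 subunit genes (TNFαDes-/- minus Des-/-, vertical axis) by complex, as deposited (left) and after quantile normalization (right); filled points passed the test and bars are medians. The points sit mostly above 0 on the left and below 0 on the right, and Cox6a1 and Cox8a stand at the top of both panels.

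The order of the complexes was similar under both scalings. Complexes IV and V had the highest median changes as deposited, 0.29 and 0.27, against 0.16 for complex III, 0.13 for complex I and 0.08 for complex II. After quantile normalization the medians were 0.00 for complex IV, -0.10 for complex V, -0.23 for complex I, -0.25 for complex III and -0.30 for complex II. With 1 array left out of the deposited values the medians ran from 0.05 to 0.32 for complex I, 0.0050 to 0.23 for complex II, 0.05 to 0.29 for complex III, 0.21 to 0.46 for complex IV and 0.14 to 0.44 for complex V, highest in each without Des-/- array 1. These medians are descriptions with no test. As deposited, neighbours in the order differed by less than the SD of a complex's mean between arrays of a group, which was 0.16 to 0.21. That SD includes the shift of Des-/- array 1 that all complexes share, so it does not measure the spread of their order. In counts, 3 of 4 complex II genes, 11 of 35 complex I genes, 1 of 9 complex III genes, 2 of 17 complex IV genes and 2 of 17 complex V genes were lower after quantile normalization, and the 3 higher ones were all of complex IV. The TNFαDes-/- arrays all lay below the Des-/- arrays for 44 of the 83 genes in that scaling, where 19.0% of all genes did so, and all above for 6, where 20.6% of all genes did. As deposited the groups were apart for 11 genes higher and 1 lower, where 24.3% and 13.7% of all genes were apart in those directions.

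**Figure D2:**
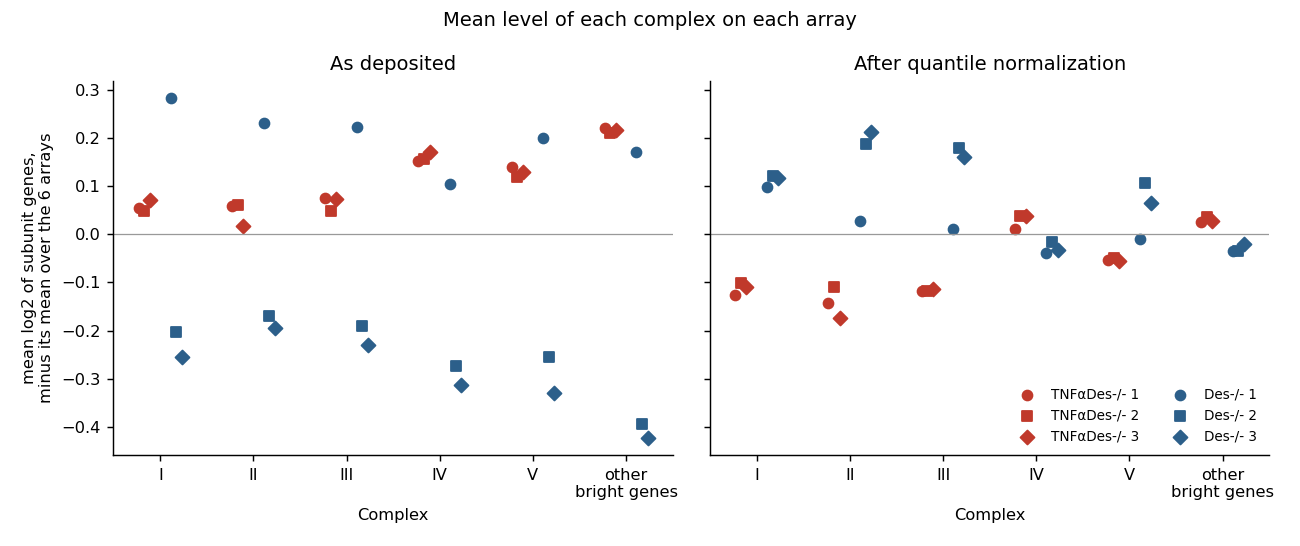
Mean log2 value of the genes of each complex on each of the 6 arrays, minus its mean over the arrays, as deposited (left) and after quantile normalization (right), with other genes of like brightness at the far right of each panel. As deposited the TNFαDes-/- arrays lie together, Des-/- array 1 lies near or above them and Des-/- arrays 2 and 3 lie below; after quantile normalization the Des-/- arrays lie above the TNFαDes-/- arrays for complexes I, II, III and V.

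A comparison chosen after the values were seen set the subunits beside other genes of like brightness, which share the scale of their arrays. Of genes with a mean log2 level of at least 12.13, the lower quartile of the subunits, 62 were subunits and 176 were others. As deposited the subunits' median change was 0.21 and that of the other bright genes 0.40. After quantile normalization the medians were -0.17 for the subunits and 0.02 for the others. The subunits' median stood 0.20 below that of the other bright genes as deposited. Over 18 alternative settings the difference ranged from -0.23 to -0.15, with the same direction in each, although the direction of the subunits themselves was not the same. Some of these settings could not change it. Median centring, the replicate block, the intensity trend and the filter on dim probe sets repeat the deposited difference by construction. Quantile normalization with the block likewise repeats the difference after quantile normalization. No test was made of this difference.

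**Figure D3:**
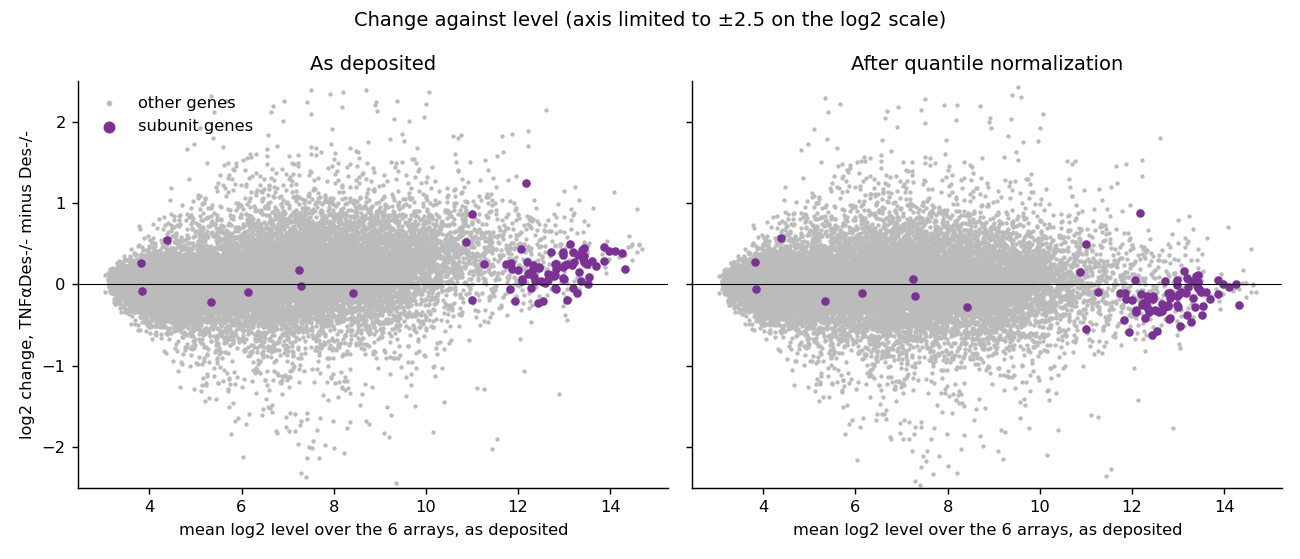
Log2 change (TNFαDes-/- minus Des-/-, vertical axis) against mean log2 level of each gene (horizontal axis), as deposited (left) and after quantile normalization (right), with subunit genes in purple and other genes in grey. The subunits sit at the bright end, where the cloud of all genes lies above 0 as deposited and near 0 after quantile normalization.

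Complex I, the NADH dehydrogenase, takes in electrons from NADH through a chain of iron-sulfur clusters held by its core subunits. None of its 35 genes passed the test as deposited, and changes ran from -0.23 for Ndufs7 to 0.49 for Ndufa4. Ndufs7, the core subunit that holds the last cluster before coenzyme Q, had deposited log2 values of 12.32, 12.26 and 12.39 in TNFαDes-/- hearts, against 12.83, 12.45 and 12.38 in Des-/- hearts. The groups overlapped narrowly, with Des-/- array 1 the highest. Its change was -0.23 ± 0.13 (SE, n = 3 arrays each; limma adjusted p = 0.261). After quantile normalization Ndufs7 had 12.11, 12.08 and 12.18 in TNFαDes-/- hearts, against 12.65, 12.80 and 12.77 in Des-/- hearts, a change of -0.62 ± 0.08 (limma adjusted p = 0.0014). In this scaling all TNFαDes-/- arrays lay below all Des-/- arrays.

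The other complex I genes that fell after quantile normalization were spread over the arms of the enzyme. Ndufs8 (-0.43), which carries iron-sulfur clusters beside Ndufs7, Ndufs3 (-0.41) and Ndufs1 (-0.34), the largest core subunit, belong to the core. Other probe sets of Ndufs8 changed by -0.53, -0.33, -0.24, -0.19 and -0.16 after quantile normalization. Of these, only the ones at -0.53 and -0.33 passed the test over all probe sets. Ndufb2 (-0.58), Ndufv3 (-0.51), Ndufs4 (-0.55), Ndufa3 (-0.47), Ndufb7 (-0.34), Ndufa5 (-0.34) and Ndufb8 (-0.32) are accessory subunits, of which Ndufs4 is needed for a stable NADH-binding module. Split into core and accessory subunits, a split made after the values were seen, the 6 core genes had a median change of 0.00 as deposited (-0.10 to 0.19 with 1 array left out) and -0.37 after quantile normalization, where 4 of them fell. The 29 accessory genes had medians of 0.18 and -0.19 under the same scalings, and 7 of them fell after quantile normalization. In that scaling 10.4% of all genes were called lower. The brightest probe set of Ndufs4, which stands for the gene, shows how much Des-/- array 1 can weigh. Its deposited values were 10.93, 10.91 and 10.85 in TNFαDes-/- hearts, against 11.49, 10.94 and 10.82 in Des-/- hearts. Without Des-/- array 1 the deposited change of Ndufs4 was 0.01, and that of Ndufs7 was -0.09. With quantile normalization over the other 5 arrays, both still fell: Ndufs4 by 0.53 (limma adjusted p = 0.0045) and Ndufs7 by 0.65 (adjusted p = 0.0018). A dimmer probe set of Ndufs4 had 5.61, 5.48 and 5.77 in TNFαDes-/- hearts, against 6.39, 6.19 and 6.28 in Des-/- hearts, without overlap. It changed by -0.67 as deposited and -0.69 after quantile normalization (limma adjusted p over all probe sets 0.0062 and 0.0029). The remaining probe sets of Ndufs4 changed by -0.30 and 0.08 as deposited and passed in neither scaling.

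At the other end stood Ndufa4, first described in complex I and since assigned to complex IV. It had 13.40, 13.39 and 13.33 in TNFαDes-/- hearts, against 13.27, 12.69 and 12.68 in Des-/- hearts. The groups did not overlap, but the change of 0.49 ± 0.16 missed the threshold (limma adjusted p = 0.0581), and after quantile normalization it was 0.17 (adjusted p = 0.167). Without Des-/- array 1 it was 0.69 and passed the test (limma adjusted p = 0.0011).

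Complex II, succinate dehydrogenase, is also an enzyme of the citric acid cycle. Sdhd, a membrane anchor, had 11.83, 11.83 and 11.70 in TNFαDes-/- hearts, against 12.04, 11.78 and 11.71 in Des-/- hearts, and these overlapped. After quantile normalization Sdhd fell by 0.44 (limma adjusted p = 0.0203). Sdhc, the second anchor, fell by 0.31 and Sdha, the flavoprotein that oxidises succinate, fell by 0.30 in that scaling. Sdhb, the iron-sulfur subunit, changed by 0.25 as deposited and -0.09 after quantile normalization and passed the test in neither.

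Complex III passes electrons from coenzyme Q to cytochrome c. Among its 9 genes, deposited changes ran from -0.05 for Uqcrc1, a core protein, to 0.25 for Uqcrh, the hinge protein, and none passed the test. Uqcrc1 had 12.79, 12.83 and 12.78 in TNFαDes-/- hearts, against 13.00, 12.77 and 12.80 in Des-/- hearts, which overlapped. By the brightest probe set of each gene, it was the only complex III gene past the test after quantile normalization, where it fell by 0.41 (limma adjusted p = 0.0326). Uqcrb just missed the threshold in that scaling (-0.25, limma adjusted p = 0.0508). A second, less bright probe set of Uqcrb passed (-0.39, limma adjusted p over all probe sets 0.0182). Cycs, the mobile carrier cytochrome c itself, had 13.41, 13.27 and 13.47 in TNFαDes-/- hearts, against 13.85, 13.14 and 13.02 in Des-/- hearts. Its change was 0.04 as deposited and -0.28 after quantile normalization, neither past the test. Uqcrb and Cox5b lay within 0.5 of the highest value on at least 1 array, at the top of the measured range.

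Complex IV, which reduces oxygen to water, held the subunit genes that rose under both scalings. Cox6a1 had 12.77, 12.78 and 12.83 in TNFαDes-/- hearts, against 12.01, 11.36 and 11.26 in Des-/- hearts. Every TNFαDes-/- array lay above every Des-/- array, and Des-/- array 1 was the nearest of the 3. The change was 1.25 ± 0.18, or 2.38-fold (SE, n = 3 arrays each; limma adjusted p = 0.0023). After quantile normalization it was 0.87 ± 0.08, or 1.83-fold. Over 18 alternative settings it ran from 0.78 to 1.48 and the highest adjusted p was 0.0201. A second probe set for Cox6a1 gave 0.75 as deposited and 0.39 after quantile normalization.

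Cox8a had 11.36, 11.51 and 11.41 in TNFαDes-/- hearts, against 10.75, 10.50 and 10.44 in Des-/- hearts. These groups did not overlap either. The change was 0.87 ± 0.11, or 1.82-fold (limma adjusted p = 0.0013), and 0.50 ± 0.10, or 1.42-fold, after quantile normalization (adjusted p = 0.0097). Over the same settings it ran from 0.42 to 0.96 with a highest adjusted p of 0.0340. A second bright probe set for Cox8a gave 0.74 and another, dim one -0.05.

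The other genes called higher as deposited lost the call in more of the settings. Cox7a2l, which takes part in joining complexes III and IV into supercomplexes, had 11.07, 11.18 and 11.11 in TNFαDes-/- hearts, against 10.82, 10.49 and 10.49 in Des-/- hearts, a change of 0.52 ± 0.12 (limma adjusted p = 0.0153). Its groups were apart as deposited and overlapped after quantile normalization, where the change was 0.15 and did not pass the test. Its 2 other probe sets changed by 0.61 and 0.58 as deposited and passed the test over all probe sets (limma adjusted p = 0.0076 and 0.0211), and by 0.25 and 0.24 after quantile normalization, where they did not. Without Des-/- arrays 2 or 3, or TNFαDes-/- arrays 1 or 3, one at a time, its adjusted p lay between 0.051 and 0.0674. Cox7c, a small structural subunit, had 4.64, 4.36 and 4.96 in TNFαDes-/- hearts, against 4.08, 3.99 and 4.24 in Des-/- hearts, all below the median signal of the arrays. Its change of 0.55 came from a dim probe set, a second probe set gave 0.03, and the call was lost with any 1 array other than TNFαDes-/- array 2 left out (adjusted p 0.0558 to 0.124). Atp5d, the delta subunit of ATP synthase, had 13.29, 13.44 and 13.44 in TNFαDes-/- hearts, against 13.17, 12.91 and 12.87 in Des-/- hearts. Its change was 0.40 ± 0.11 (limma adjusted p = 0.0365) as deposited and 0.08 after quantile normalization. With any array other than Des-/- array 1 left out its adjusted p lay between 0.0727 and 0.138. A second bright probe set of Atp5d changed by 0.32 as deposited (limma adjusted p over all probe sets 0.122). After quantile normalization it changed by -0.06, and it passed the test in neither scaling.

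In complex IV the muscle isoforms had lower changes than their widely expressed counterparts. Cox7a1 had 12.45, 12.45 and 12.40 in TNFαDes-/- hearts, against 13.01, 12.49 and 12.40 in Des-/- hearts. Cox8b had 13.15, 13.19 and 13.17 in TNFαDes-/- hearts, against 13.58, 13.07 and 12.98 in Des-/- hearts. Cox6a2 had 13.54, 13.65 and 13.62 in TNFαDes-/- hearts, against 13.67, 13.21 and 13.13 in Des-/- hearts. None of these passed the test as deposited, with changes of -0.20, -0.04 and 0.27 in that order, and Des-/- array 1 was the highest array for each. After quantile normalization Cox7a1 fell by 0.57 (limma adjusted p = 0.0015) and Cox8b fell by 0.37 (adjusted p = 0.0107), while Cox6a2 changed by -0.07 (adjusted p = 0.602).

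**Figure D4:**
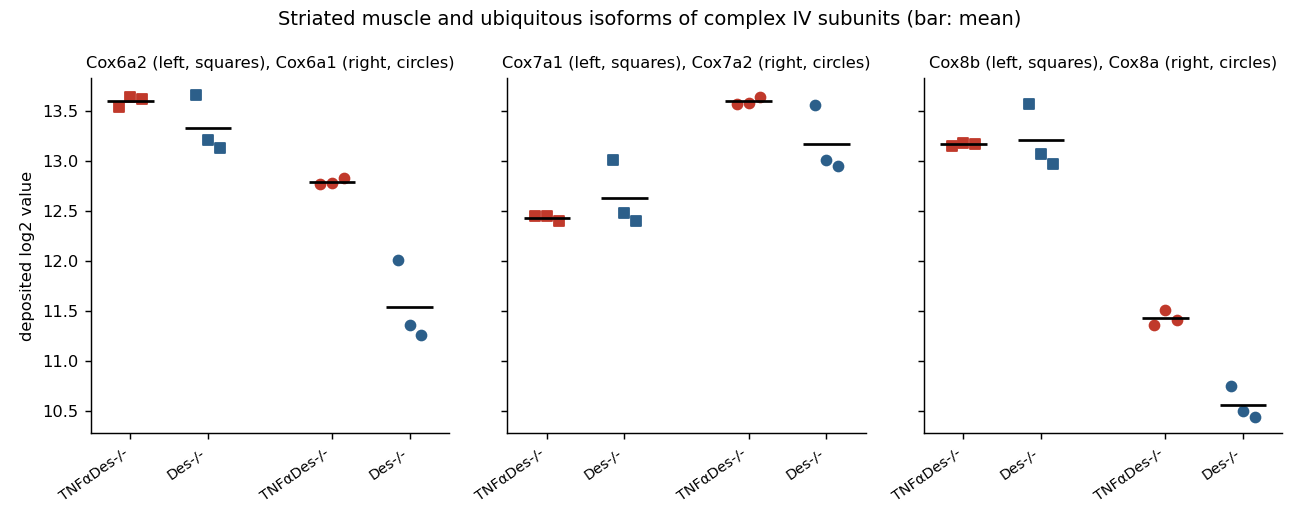
Deposited log2 values (vertical axis) of the muscle isoform (squares, left) and the widely expressed isoform (circles, right) of 3 complex IV subunits on each array, TNFαDes-/- in red and Des-/- in blue, with means as bars. The circles of Cox6a1 and Cox8a are higher in TNFαDes-/- hearts than on every Des-/- array, while the squares of the muscle isoforms overlap between groups.

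Within an array, the difference between the log2 values of a pair of isoforms does not depend on a scale factor common to the whole array. The arrays differed mainly at the bright end, however: the median of all probe sets was 5.02 to 5.08 on each of them. A pair of unlike brightness can therefore still carry part of the scale difference. Probe sets differ in brightness, so only the change of this difference can be read, not its size. Cox6a2 minus Cox6a1 was 0.77, 0.86 and 0.79 in TNFαDes-/- hearts, against 1.66, 1.85 and 1.87 in Des-/- hearts, a change of -0.98 ± 0.07 (SE, n = 3 arrays each). Cox8b minus Cox8a was 1.79, 1.67 and 1.76 in TNFαDes-/- hearts, against 2.83, 2.58 and 2.53 in Des-/- hearts, a change of -0.91 ± 0.10. Cox7a1 minus Cox7a2 was -1.12, -1.13 and -1.24 in TNFαDes-/- hearts, against -0.55, -0.53 and -0.55 in Des-/- hearts, a change of -0.62 ± 0.04. In all 3 pairs the groups were apart, Des-/- array 1 lay with the other Des-/- arrays, and the shift was away from the muscle isoform. After quantile normalization the changes were -0.94, -0.88 and -0.67 in the same order. With the mean of all probe sets of a gene they were -0.67 for the Cox6a pair, -0.56 for the Cox8 pair and -0.59 for the Cox7a pair.

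The exact two-sided permutation p was 0.10 for each of these pairs, the smallest that 3 against 3 arrays can give, and 0.133 after Benjamini-Hochberg adjustment over the 8 isoform pairs compared, so none could pass 0.05. Of the other pairs, Atp5g1 minus Atp5g3, genes that encode the same mature subunit c of the ATP synthase ring, changed by -0.41 ± 0.06 as deposited and by -0.38 after quantile normalization. Its groups were also apart (exact permutation p = 0.10). Atp5g2 minus Atp5g3 changed by -0.14 with overlapping groups. Cox6b2 minus Cox6b1 changed by -0.67 as deposited and -0.25 after quantile normalization. Ndufa4l2 minus Ndufa4 changed by -0.61 with overlapping groups as deposited. Cox4i2 minus Cox4i1 changed by -0.38 as deposited and by 0.02 after quantile normalization, which turned its direction. In the Cox6b and Cox4i pairs the first gene was dim, at 5.12 to 5.49 over the 6 arrays for Cox6b2 and 6.02 to 6.39 for Cox4i2.

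Brown fat also expresses Cox7a1 and Cox8b, and its markers differed between the groups. The marker counts given here were not tested against the shares of all genes called. Those shares were 15.2% higher and 6.05% lower as deposited, and 12% and 10.4% after quantile normalization. Without Des-/- array 1 they were 23.4% and 8.56%. Of 5 measured brown adipocyte markers 3 were lower and 1 higher in TNFαDes-/- hearts. Ucp1, the uncoupling protein, changed by -1.30, Adipoq, the fat hormone adiponectin, by -1.27, Elovl3 by -0.60 and Dio2 by 0.51, and Cidea changed by -0.20 and did not pass. The log2 of their summed signal was 10.18 to 10.23 in TNFαDes-/- hearts, against 10.69 to 11.09 in Des-/- hearts. Macrophage markers, 4 higher and 1 lower of 5, had summed values of 11.83 to 11.91 in TNFαDes-/- hearts, against 11.31 to 11.78 in Des-/- hearts. Fibroblast markers, 2 higher of 5, had 14.35 to 14.43 in TNFαDes-/- hearts, against 13.55 to 14.05 in Des-/- hearts. After quantile normalization 4 brown adipocyte markers were lower and 1 higher, macrophage markers were again 4 higher and 1 lower, and of fibroblast markers 1 was higher and 2 were lower. As deposited 2 of 5 endothelial, 1 of 5 smooth muscle, 1 of 2 erythroid and 1 of 5 skeletal muscle markers were lower, and 0 were higher. After quantile normalization 3 of 5 endothelial, 3 of 5 smooth muscle, 1 of 2 erythroid and 2 of 5 skeletal muscle markers were lower. The part of these cells in the isoform shift was not tested, and in whole hearts fewer cells of a type and less RNA per cell cannot be told apart. The labelled tissue showed its markers: the 9 cardiomyocyte genes were bright on all arrays, summing to 17.54 to 17.58 in TNFαDes-/- hearts, against 16.95 to 17.67 in Des-/- hearts, and 0 of 9 passed the test as deposited, with 2 lower after quantile normalization and 8 higher when Des-/- array 1 was left out of the deposited values.

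Promoter sequence was read for the genes of the 3 complex IV isoform pairs that RefSeq's table (GRCm38.p6) holds, since their values moved apart. Each stretch spans 170 bases before and 30 bases after a transcription start in that table. For Cox7a2 this start, at 79759853, is not the annotated edge of the gene, at 79771422. Capitals mark the letters of motifs searched on both strands.
Cox6a1 (chr5:115348929-115349128, minus strand): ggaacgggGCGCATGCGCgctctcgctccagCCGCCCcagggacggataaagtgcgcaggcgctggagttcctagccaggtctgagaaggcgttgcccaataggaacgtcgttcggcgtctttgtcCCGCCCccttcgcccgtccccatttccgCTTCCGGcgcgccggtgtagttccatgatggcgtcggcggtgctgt
Cox8a (chr19:7217587-7217786, minus strand): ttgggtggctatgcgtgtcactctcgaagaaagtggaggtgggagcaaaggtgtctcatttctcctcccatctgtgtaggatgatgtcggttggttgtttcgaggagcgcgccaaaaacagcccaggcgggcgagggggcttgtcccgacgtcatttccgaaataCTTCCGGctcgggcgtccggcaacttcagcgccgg
Cox8b (chr7:140900417-140900616, minus strand): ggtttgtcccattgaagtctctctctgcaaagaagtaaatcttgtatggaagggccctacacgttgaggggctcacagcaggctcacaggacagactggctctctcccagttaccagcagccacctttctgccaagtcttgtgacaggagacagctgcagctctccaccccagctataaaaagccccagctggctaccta
Cox7a1 (chr7:30184001-30184200, plus strand): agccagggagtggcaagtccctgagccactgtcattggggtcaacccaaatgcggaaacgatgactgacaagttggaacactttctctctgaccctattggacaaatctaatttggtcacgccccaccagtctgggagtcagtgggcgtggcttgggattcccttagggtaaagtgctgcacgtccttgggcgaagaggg
Cox7a2 (chr9:79759824-79760023, minus strand): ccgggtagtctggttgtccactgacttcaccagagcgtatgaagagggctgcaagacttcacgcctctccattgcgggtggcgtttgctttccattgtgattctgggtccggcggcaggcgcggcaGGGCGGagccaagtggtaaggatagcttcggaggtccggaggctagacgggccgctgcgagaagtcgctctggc
The Cox6a1 stretch holds an NRF1 motif, an ETS motif and 2 SP1 motifs, where the NRF1 letters were found on both strands at overlapping positions. The Cox8a stretch holds an ETS motif and the Cox7a2 stretch an SP1 motif. The muscle isoforms Cox8b and Cox7a1 hold none of the 5 motifs in these windows, and nothing about the factors follows from that. A match is a description of letters and not a binding site.

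Nuclear respiratory factor 1, ETS factors such as GABP, YY1, oestrogen-related receptors and SP1 are known regulators of respiratory genes. RefSeq promoters of 300 bases, 250 before and 50 after the start, were found for 67 of the 83 genes, in 72 windows. The NRF1 letters GCATGCGC occurred in 13.9% of the subunit windows and in 2.71% of all 32851 windows. The ETS letters CCGGAAG occurred in 23.6% of subunit windows and 8.86% of all windows. The YY1 letters AAGATGGC occurred in 12.5% of subunit windows and 2.75% of all windows. The letters AAGGTCA of oestrogen-related receptors occurred in 11.1% of subunit windows and 4.72% of all windows. The SP1 letters GGGCGG occurred in 41.7% of subunit windows and 35.7% of all windows. These shares describe the sequences and were not tested.

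**Figure D5:**
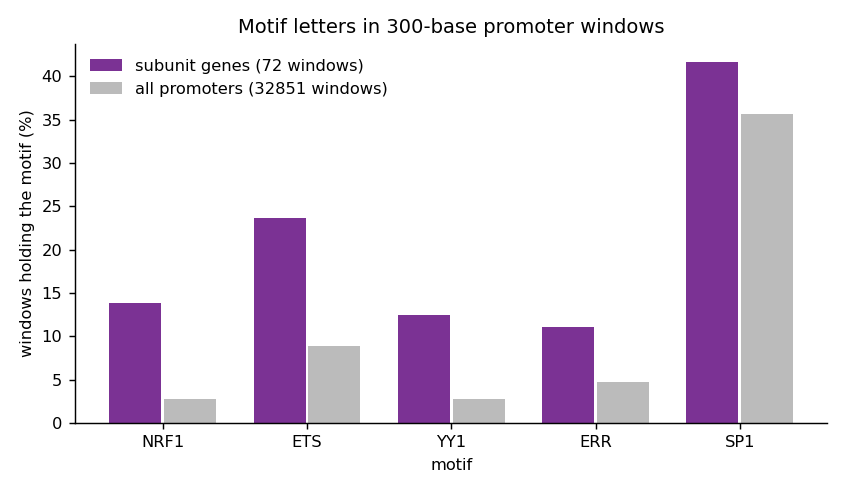
Percent of 300-base promoter windows that hold each motif (vertical axis), for the 72 windows of subunit genes (purple) and for all 32851 windows (grey). The purple bar is the higher of the pair for each of the 5 motifs, from 11.1% for ERR to 41.7% for SP1.

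In complex V, by the brightest probe set of each gene, all 17 genes had a positive change as deposited, from 0.01 for Atp5g1 to 0.42 for Atp5g3. After quantile normalization 13 had a negative one. With the mean of all probe sets of a gene, 16 were positive and 1 was negative in the deposited values. Atp5g3 had 14.24, 14.17 and 14.12 in TNFαDes-/- hearts, against 14.11, 13.61 and 13.56 in Des-/- hearts. Its groups were apart, though TNFαDes-/- array 3 lay only just above Des-/- array 1, and the change of 0.42 ± 0.15 missed the threshold (limma adjusted p = 0.0824). Atp5g1 had 13.50, 13.50 and 13.55 in TNFαDes-/- hearts, against 13.78, 13.39 and 13.37 in Des-/- hearts. These overlapped, and after quantile normalization Atp5g1 fell by 0.37 (limma adjusted p = 0.0204). Atp5e, the epsilon subunit, was the only other complex V gene past the test in that scaling and fell by 0.25. That depends on the probe set chosen. Over all probe sets, dimmer ones of Atp5o (-0.78, limma adjusted p = 0.0051) and Atp5k (-0.38, adjusted p = 0.0192) were also lower. One of Atp5g2, near the floor, was higher (0.40, limma adjusted p = 0.0359). The 5 genes of subunits alpha to epsilon, a group split off after the values were seen, had a median change of 0.35 as deposited. Their median was -0.03 after quantile normalization. The 12 other genes had medians of 0.26 and -0.11 under the same scalings.

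Genes that build and serve the complexes were counted from lists written from textbook knowledge, with the same test. For comparison, 15.2% of all genes were called higher and 6.05% lower as deposited. These shares were 12% and 10.4% after quantile normalization, and 23.4% and 8.56% without Des-/- array 1. The counts in the lists are descriptions and were not tested against these shares. Of 19 measured assembly factors of complex IV, 5 rose and 0 fell as deposited, with a median change of 0.25. Cox19, a factor tied to copper delivery, had 10.49, 10.55 and 10.57 in TNFαDes-/- hearts, against 9.44, 9.53 and 9.39 in Des-/- hearts. The groups were far apart and Des-/- array 1 lay between the other Des-/- arrays. Its change was 1.08 ± 0.09 (limma adjusted p = 0.00019) and at least 0.67 in each alternative setting, with a highest adjusted p of 0.0086. Cox20, a chaperone of the second catalytic subunit, rose by 0.85, Coa6, a copper factor, by 0.63 and Cox11, which also delivers copper, by 0.62. Without TNFαDes-/- array 1 the adjusted p of Coa6 was 0.0507, and that of Cox11 was 0.063 to 0.0736 without either of Des-/- arrays 2 and 3 or TNFαDes-/- arrays 1 and 3. After quantile normalization 5 factors of this list rose and 2 fell, with a median of 0.08. Without Des-/- array 1, 10 rose and 0 fell.

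Assembly factors of the other complexes were counted in the same way. Of 15 for complex I, Acad9 rose by 0.68 and Tmem126b, its partner in the assembly complex of the membrane arm, fell by 0.65. Timmdc1 fell by 1.14. The median of the list was 0.09 as deposited and -0.10 after quantile normalization, with 1 higher and 2 lower in both. Timmdc1, also needed for the membrane arm, had 7.52, 7.21 and 7.40 in TNFαDes-/- hearts, against 9.06, 8.31 and 8.19 in Des-/- hearts, with no overlap. Of 6 for complex III, Uqcc3, which acts on cytochrome b, rose by 0.49 and Lyrm7, a chaperone of the Rieske protein, fell by 0.41. Uqcc3 did not pass after quantile normalization (limma adjusted p = 0.110), and Lyrm7 lost its call without any 1 array other than TNFαDes-/- array 2 (adjusted p 0.0624 to 0.151). None of 4 for complex II or of 6 for complex V passed the test as deposited; after quantile normalization 1 of 4 and 2 of 6 fell, as did 2 of the 6 for complex III.

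Of 12 genes of coenzyme Q synthesis and handling, Coq7, a hydroxylase of the pathway, rose by 0.51 and Coq8b, a kinase-like protein, by 0.57, while Coq10a, a coenzyme Q-binding protein, fell by 0.68. Coq7 did not pass after quantile normalization (limma adjusted p = 0.122) or without Des-/- array 2 or 3 (0.0513 to 0.0532), and Coq8b and Coq10a did not without TNFαDes-/- array 1 or 3 (0.0553 to 0.0793). The list's direction differed between scalings: it had a median of 0.13 as deposited, and after quantile normalization 1 gene was higher and 4 lower, with a median of -0.14. Among 14 genes that supply electrons or export ATP, Slc25a5, the widely expressed ADP/ATP carrier, had 12.90, 12.86 and 12.85 in TNFαDes-/- hearts, against 12.15, 11.69 and 11.67 in Des-/- hearts. The groups did not overlap, and the change was 1.03 ± 0.14 (limma adjusted p = 0.0014), between 0.63 and 1.19 in the alternative settings. Slc25a4, the muscle form of the same carrier, named after its values were seen, had 14.38, 14.30 and 14.40 in TNFαDes-/- hearts, against 14.46, 13.78 and 13.83 in Des-/- hearts. Those groups overlapped, and its change of 0.34 did not pass the test. Vdac2, an outer membrane channel, rose by 0.65 and Prodh, proline dehydrogenase, fell by 0.37. Both lost the call without any 1 array other than Des-/- array 1 (limma adjusted p 0.0553 to 0.0777 for Vdac2 and 0.0767 to 0.175 for Prodh). As deposited 2 of the 14 were higher and 1 lower (median 0.07), after quantile normalization 2 were higher and 5 lower (median -0.26), and without Des-/- array 1 there were 6 higher and 1 lower.

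Of 15 regulators of mitochondrial biogenesis, Ppard, a fatty acid receptor, rose by 0.67, Gabpb1, a subunit of the ETS factor GABP, by 0.37 and Pprc1, a coactivator, by 0.35, while Esrrb, an oestrogen-related receptor, fell by 0.43. Of 18 genes of mitochondrial DNA maintenance and transcription, Tk2, which makes nucleotides for that genome, rose by 0.59 and Mterf3, of the mitochondrial transcription termination factor family, by 0.43. Of these 6 genes only Ppard kept its call with each array left out in turn: the highest adjusted p among those settings was 0.124 for Gabpb1, 0.176 for Pprc1, 0.126 for Esrrb, 0.0894 for Tk2 and 0.171 for Mterf3. Pprc1 and Mterf3 also did not pass after quantile normalization, where 2 regulators were higher and 2 lower, and 2 genes of the mitochondrial DNA list were higher and 1 lower. Without Des-/- array 1 there were 8 higher and 1 lower among the regulators, and 6 higher and 0 lower in the mitochondrial DNA list. The 1 measured subunit encoded by that genome, ND5 of complex I, had 14.57, 14.40 and 14.54 in TNFαDes-/- hearts, against 14.64, 13.87 and 13.90 in Des-/- hearts. Its values followed the array scale as the nuclear subunits did, with a change of 0.37 as deposited (limma adjusted p = 0.231) and -0.05 after quantile normalization.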

How the data were processed

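Total RNA of whole hearts was measured on 6 one-colour Affymetrix arrays. The authors deposited log2 values per probe set, made with RMA (no version named) per the submitters' processing notes. The sources used here do not say whether its quantile step was run, or over which arrays. Of 45101 probe sets 64 are controls, and 34945 have 1 gene symbol in the platform annotation. Probe sets with several symbols (932) or none (9160) name no gene here. For 18193 genes the brightest probe set by mean level stood for the gene, and each change is TNFαDes-/- minus Des-/-.

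Groups came from the sample titles and were compared with limma 3.58.1 (lmFit and eBayes) in R 4.3.3, adjusting p over all genes by Benjamini-Hochberg and calling at 0.05. The fit was tested on simulated data. Isoform pairs were compared with an exact two-sided permutation test. Same-numbered arrays deviated from their group means with correlations of 0.25, 0.31 and -0.30, which cannot settle whether the numbers pair the samples. The labels give no pairing beyond the number, so the main fit used none. Precision is limited by the number of arrays.

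The subunit genes and the 18 gene lists (186 entries, 151 measured) were chosen with earlier results of these data known. Genes named were subunits past the test in either scaling (at most 12 per direction), the extremes of each complex, the isoform pairs, and up to 4 genes of each other list with the smallest p, of which those past the test and ND5 are printed. Subunits and markers named beyond this, the splits within complexes I and V, the comparison with bright genes and the printed promoters were chosen after their values were seen.

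Alternatives were quantile normalization over 6 arrays or over 5 without Des-/- array 1, median centring, cyclic loess, each array left out, a replicate block, an intensity trend, array weights, the mean of all probe sets, no _s_at or _x_at probe sets and a filter at a log2 level of 5.05. Leaving out Des-/- arrays 2 and 3 together was added after seeing the data. Promoter sequences are from RefSeq (GRCm38.p6). Figures were drawn with matplotlib 3.10.9.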

Additional observations from a re-analysis of the deposited data

How the results depend on the processing

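The scale of the arrays limits what can be said of the subunits as a group, and 3 arrays a group limit the precision. Subunits higher numbered 5 as deposited, 3 after quantile normalization, 3 after cyclic loess and 2 after quantile normalization over 5 arrays. They numbered 10 with a replicate block (same-numbered arrays share only a number) and 3 with quantile normalization and the block. With array weights there were 53, without _s_at and _x_at probe sets 3, and with 1 array left out 2 to 49. Subunits lower numbered 0 as deposited, 19 after quantile normalization, 27 after cyclic loess and 25 over 5 arrays. They numbered 15 with quantile normalization and the block and 1 with array weights. Over all genes, 2768 were higher as deposited, 5501 with array weights, 883 with Des-/- arrays 2 and 3 left out and 1475 to 4257 with 1 array left out. Genes lower numbered 1101 as deposited, 1897 after quantile normalization, 1995 after cyclic loess, 2462 over 5 arrays, 1951 with quantile normalization and the block, 2913 with array weights, 704 with Des-/- arrays 2 and 3 left out and 557 to 1557 with 1 array left out. Median changes of complexes I to V were -0.23, -0.30, -0.25, 0.00 and -0.10 after quantile normalization, with or without the block. They were -0.26, -0.31, -0.30, -0.095 and -0.17 after cyclic loess, and -0.21, -0.35, -0.23, 0.014 and -0.11 over 5 arrays. With Des-/- arrays 2 and 3 left out (chosen after seeing the data) they were -0.21, -0.21, -0.15, 0.032 and -0.056. With 1 array left out they ran from 0.049 to 0.32, 0.0050 to 0.23, 0.055 to 0.29, 0.21 to 0.46 and 0.14 to 0.44. Cox4i2 minus Cox4i1 turned to 0.024 after quantile normalization, 0.061 after cyclic loess and 0.13 over 5 arrays. Atp5d turned to -0.034 after cyclic loess and -0.0080 over 5 arrays. Atp5g1 turned to -0.37 after quantile normalization with or without the block, and to -0.45 after cyclic loess and over 5 arrays, and Cycs turned to -0.40 after cyclic loess. Other causes than the alternatives' own construction were not tested. For the named genes and isoform pairs, 751 alternative values kept direction and side of the threshold, 120 lost the threshold, 73 gained it, 7 turned where a value passed the test, and 64 changed sign with neither value past it.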
